A study of Mus musculus with 4 samples.

Results

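Circular RNAs were read at 3 stretches of the mouse genome that hold genes for the muscle contractile proteins troponin T and skeletal myosin heavy chain. All coordinates are mm9, counted from 1, on the + strand. The stretches were set by position around Tnnt3 (its circles lay on chromosome 7 from 149688663 to 149701913), Tnnt2 (chromosome 1 from 137737490 to 137748837) and the skeletal Myh cluster of Myh3, Myh2, Myh1, Myh4 and Myh8 (chromosome 11 from 66893705 to 67073194). Every circle within the stretches was taken, which gave 387 of the 69136 circles listed in the series. Of these, 77 were in the Tnnt3 stretch, 91 in the Tnnt2 stretch and 219 in the Myh cluster. Circles were found at 5 of the 7 genes. Myh2 and Myh8 had none in any library.

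The cells were C2C12, an established mouse myoblast line whose cells fuse into myotubes when serum is lowered. They were kept in medium with 2% horse serum for 3 to 4 days in both groups. The 2 RPAD libraries were made from RNA digested with RNase R for 30 min, after which the remaining linear RNA was polyadenylated and removed as poly(A)+ RNA. The 2 total RNA libraries skipped those steps. Ribosomal RNA was depleted and 17 cycles of PCR were run in both groups. The protocol speaks of HeLa RNA in the digestion, while each library is labelled C2C12, and this was not resolved. No label states that a group's libraries stem from separate cultures, so p-values measure the spread between libraries, which may be technical. The files hold back-splice reads only, so muscle marker transcripts could not be read as a check of the cells.

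Troponin T is the subunit that anchors the calcium-sensing troponin complex to tropomyosin on the thin filament. Tnnt3 encodes the fast skeletal form. Tnnt2 encodes the cardiac form, which skeletal muscle also makes early in its development. Myosin heavy chain is the motor of the thick filament, and its skeletal forms lie side by side in 1 cluster: Myh3 is the embryonic form, Myh8 the perinatal form, and Myh2, Myh1 and Myh4 the adult fast IIa, IIx and IIb forms. An exonic circle forms when a downstream exon end is spliced back to an upstream exon start. An intronic circle is derived from the lariat of a removed intron, and in these files each one began at the intron's 5' splice site and ended inside the intron. RNase R digests linear RNA from its 3' end and spares closed circles.

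A library's back-splice reads numbered 150478 and 191246 in RPAD, against 38850 and 35981 in total RNA. These totals are not sequencing depth, so each abundance below is relative to the other circles of its library. PCR copies were not marked, so intervals and the floor of 3 reads cover counting error only. The tests were run on counts summed by host group (transcripts linked by a shared junction or intron), by intron and by circle, and adjusted over every feature of that kind in the series. By edgeR's quasi-likelihood test with Benjamini-Hochberg adjustment, 0 of the 5 host groups tested at these genes passed 0.05, against a background of 0% of 1424 host groups. At an unadjusted p under 0.05, 3 of the 5 were lower in RPAD (background 25.2%). DESeq2 called 2 of the 5 lower in RPAD (background 7.09%). A feature present in 1 group alone passes the low-count filter through that group, so these counts are descriptions. Across the 1424 host groups the median log2 fold change, RPAD over total RNA, was -0.93. It was -0.70 with DESeq2's size factors in edgeR.

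The 7 genes differed in where their circles were seen. Reads at Tnnt3 and Myh3 occurred in total RNA alone, and those at Tnnt2 and Myh1 in all 4 libraries. Per 10000 back-splice reads, Myh1 had 40.7 and 20.7 in RPAD and 3.86 and 16.1 in total RNA. Together the genes had 686 and 470 reads in RPAD, against 332 and 334 in total RNA. Per 10000 back-splice reads this was 45.6 and 24.6 in RPAD and 85.5 and 92.8 in total RNA. Intronic circles took 100% of these reads in both RPAD libraries, and 91.3% and 91.6% in total RNA. Of all back-splice reads in a library they took 62.8% and 52.0% in RPAD, and 58.4% and 57.2% in total RNA.

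**Figure D1:**
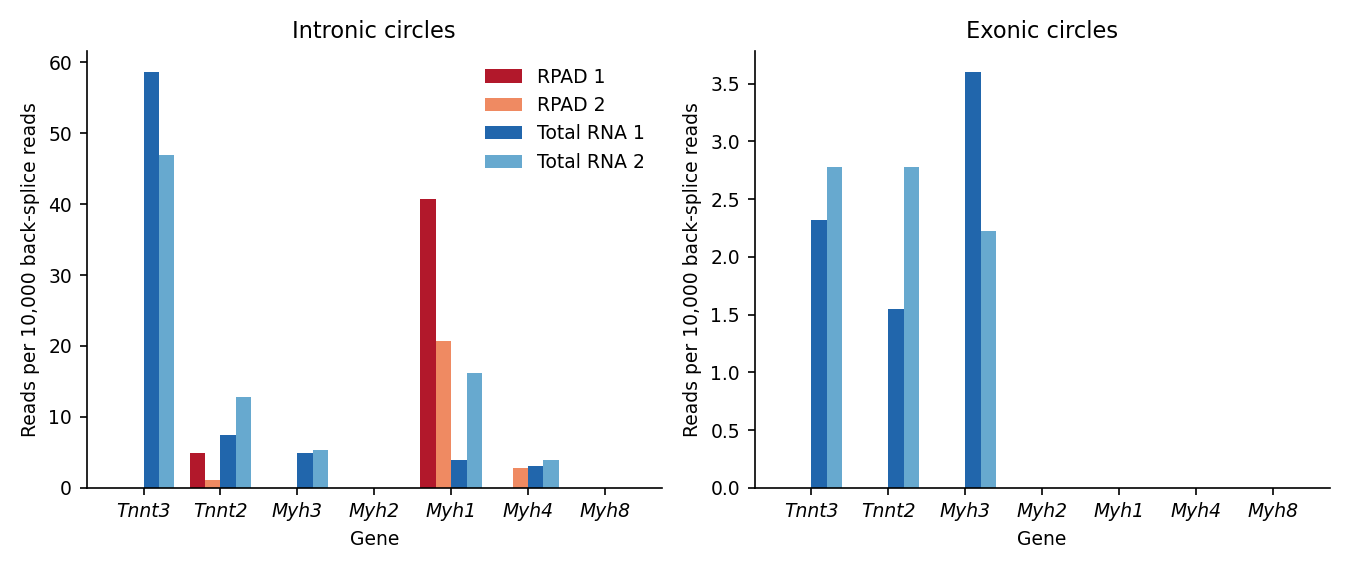
Back-splice reads per 10000 of a library (y axis) at each of the 7 genes (x axis), in separate panels for intronic and exonic circles, with 1 bar per library. Exonic reads are seen in total RNA alone, Tnnt3 leads the intronic reads of total RNA, and Myh1 leads those of RPAD.

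At Tnnt3, circles were abundant in total RNA and unseen after RPAD. The gene had 0 and 0 reads in RPAD, against 237 and 179 in total RNA. In total RNA that was 61.0 and 49.7 per 10000 back-splice reads, which placed it 8th of 3798 and 9th of 3254 host groups. Cells were pooled in each library, so in any level given here the number of cells with a circle and its amount per cell cannot be told apart. The groups did not overlap. A pattern of 0 reads in both RPAD libraries with reads in both total RNA libraries was found at 24.1% of the 1424 host groups. Against a floor of 3 reads for the RPAD libraries together, Tnnt3 was lower in RPAD by 633-fold. The total RNA reads enter such folds as observed, so the folds given here are not lower limits. edgeR's quasi-likelihood test gave an unadjusted p of 0.0023 and a Benjamini-Hochberg adjusted p of 0.136, and DESeq2 gave an adjusted p of 0.00847. The adjusted p over the other settings ran between 1.98e-07 without RPAD replicate 1 and 1.00 without total RNA replicate 2. It was 3.71e-07 without RPAD replicate 2, 0.0464 with replicate number as a block and 0.0229 without a low-count filter.

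Nearly all of the Tnnt3 signal came from intron 4, which spans 149688663 to 149689952 (1290 nt). It had 0 and 0 reads in RPAD, against 225 and 164 in total RNA. In total RNA it ranked 3rd of 4050 and 1st of 3246 introns. Against the floor of 3 reads it was 592-fold lower in RPAD. Its Benjamini-Hochberg adjusted p in edgeR was 0.113 over 1026 introns and its DESeq2 adjusted p 0.0100. Over the other settings the adjusted p lay between 2.97e-10 (without RPAD replicate 1) and 1.00 (without total RNA replicate 2). It was 0.00180 without RPAD replicate 2 and 0.0417 with the replicate block. Other abundant introns also lacked RPAD reads: of 62 introns that each total RNA library read 20 times or more, 24 (38.7%) had no read in either RPAD library. Of the 5 that each read 100 times or more, 1 had none, and that was this intron.

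The 3' ends of the intron 4 circles lay at many neighbouring positions, and both total RNA libraries filled the same zone. There were 56 ends in total RNA replicate 1 and 60 in replicate 2. The circles were 101 to 167 nt long in replicate 1 (median 130 nt) and 101 to 198 nt in replicate 2 (median 133.5 nt). The most-read end made a circle of 108 nt in both replicates, with 15 reads (6.67%) and 12 reads (7.32%), so no single circle dominated. Even the farthest end lay 1123 and 1092 nt before the intron's 3' end.

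Of 66 ends seen in either library, 50 were shared. That was 75.8% of either, 89.3% of those in replicate 1 and 83.3% of those in replicate 2. Shared ends carried 96.4% and 89.0% of the reads. Replicate 1 had 56 ends within a span of 67 nt. In a zone filled that densely most ends overlap anyway, so these shares do not show that particular ends recur. Among the 62 introns above, the median share of ends seen in both was 22.5% and the range 0% to 75.8%, with Tnnt3 intron 4 highest. Among the 5 introns read 100 times or more in each library the share ranged between 22.4% and 75.8%. The shares were not adjusted for read number or for the width of the zone. Across the 66 ends, Pearson's r of the 2 libraries' reads was 0.51, as a description over ends of 1 intron. The mean end differed by 1.49 nt, against a median difference of 6.48 nt over the 62 introns.

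**Figure D2:**
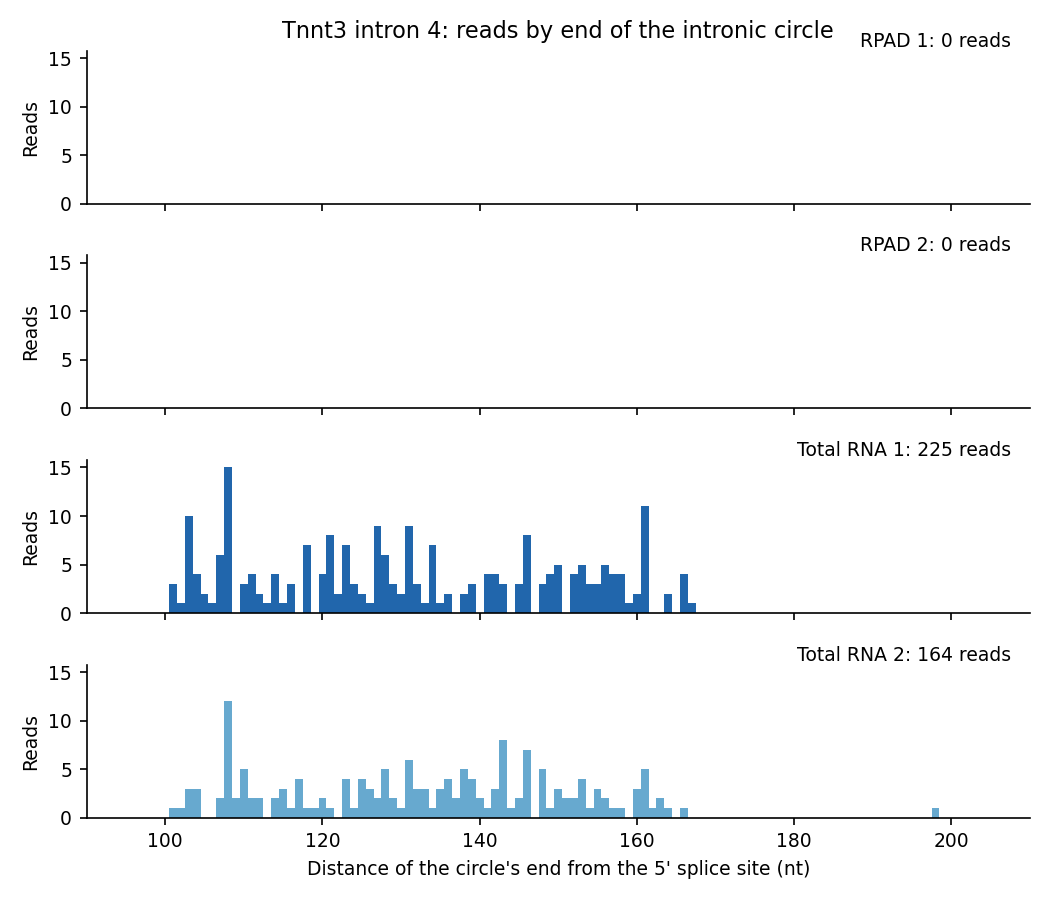
Reads (y axis) at each circle end in Tnnt3 intron 4 by distance from the 5' splice site in nt (x axis), for the total RNA libraries. RPAD libraries had 0 reads. Both profiles fill the same zone, start at 101 nt and peak at 108 nt.

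Other Tnnt3 introns gave few reads. Intron 16 (149698528 to 149700230) had 0 and 0 in RPAD and 2 and 5 in total RNA. Intron 10 had 1 read, in total RNA replicate 1.

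The Tnnt3 exonic circles came from the 3' part of the gene. The circle of exons 15 and 16 (149698161 to 149698527, 201 nt spliced) had 0 and 0 reads in RPAD and 3 and 8 in total RNA, or 33.3% and 80.0% of the gene's exonic reads there. Exon 15 alone (149698161 to 149698270, 110 nt) had 0 and 0 in RPAD and 6 and 0 in total RNA. These circles share their upstream junction at the start of exon 15, so the total RNA libraries differed in which downstream end was joined to it. Exon 12 (117 nt) and the last exon listed, 18 (233 nt), had 1 read each, both in total RNA replicate 2. Over the gene, exonic reads were 0 and 0 in RPAD and 9 and 10 in total RNA. The share of a library's exonic reads averaged 0% in RPAD and 0.0603% ± 0.00661 in total RNA (SD, n = 2 each, exact two-sided permutation p = 0.33, the smallest possible with 2 against 2).

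The host groups most like Tnnt3 over the 4 libraries (Euclidean distance of log2 of counts per 1000000 back-splice reads, plus 1, among 1424) were made of another kind of circle. The nearest, on chromosome 4 from 16065048 to 16085577, was read 0 and 0 times in RPAD and 149 and 121 times in total RNA, at a distance of 0.88. Next came chromosome 6 from 136821688 to 136824326 (0 and 0 in RPAD, 116 and 103 in total RNA, distance 1.30). The last of the 3 was chromosome 9 from 22372149 to 22616987 (0 and 0 in RPAD, 72 and 120 in total RNA, distance 1.81). Exonic circles held 268, 188 and 171 reads of these groups and intronic circles 2, 31 and 21. At Tnnt3 intronic circles held 96.2% and 94.4% of reads in total RNA.

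Tnnt2 was seen in every library, at a lower level than Tnnt3 in total RNA. It had 74 and 21 reads in RPAD, against 35 and 56 in total RNA. Per 10000 back-splice reads this was 4.92 and 1.10 in RPAD and 9.01 and 15.6 in total RNA, so both RPAD libraries lay below both total RNA libraries, as did 39.2% of the 1424 host groups. The difference did not pass the test: log2 fold change -2.39 (SE 1.88), edgeR Benjamini-Hochberg adjusted p = 0.696, DESeq2 adjusted p = 0.736. Junctions with the authors' score of 1 held 74 and 21 of the Tnnt2 reads in RPAD, and 29 and 45 in total RNA. With junctions of score 0 alone no RPAD read was left, and the edgeR adjusted p was 0.0983.

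The introns behind the Tnnt2 reads differed between libraries of the same group. Intron 8 (137745466 to 137745926, 461 nt) had 74 and 2 reads in RPAD and 20 and 3 in total RNA. Intron 3 of a second transcript model (137738604 to 137740361, 1758 nt) had 0 and 19 in RPAD and 3 and 15 in total RNA. Intron 9 (137746038 to 137746955, 918 nt) had 0 and 0 in RPAD and 0 and 27 in total RNA. RPAD replicate 1 thus read Tnnt2 through intron 8 alone and replicate 2 mainly through intron 3. Such turnover was common in the series: of introns with at least 20 reads in RPAD replicate 1, 74.0% had 0 in replicate 2, and the reverse share was 78.6%. Between the total RNA libraries the shares were 38.2% and 29.1%.

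Neither Tnnt2 intron that could be tested passed. The log2 fold change was -1.35 (SE 2.34) for intron 8 and -2.79 (SE 2.48) for intron 3, and edgeR's Benjamini-Hochberg adjusted p was 0.941 and 0.761. The sign for intron 8 turned without total RNA replicate 1 (log2 fold change 0.60). Without RPAD replicate 2, where its RPAD reads lay, intron 3 had an edgeR adjusted p of 0.0270, and over the other settings up to 1.00. Its fitted log2 fold change was then -7.85, against 1 RPAD library with 0 reads. Circle lengths in intron 8 were 100 to 172 nt in RPAD replicate 1 and 107 to 177 nt in total RNA replicate 1, and those libraries shared 4 of their 22 and 17 ends. In intron 9 the 21 ends lay 290 to 369 nt from the 5' splice site, and all came from total RNA replicate 2. Intron 1 had 0 and 0 reads in RPAD and 5 and 0 in total RNA. Intron 5, the last of the 5 most-read, had 1 read, in total RNA replicate 2.

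Exon 9 was the centre of the Tnnt2 exonic circles. As a single-exon circle (137745927 to 137746037, 111 nt) it had 0 and 0 reads in RPAD and 5 and 6 in total RNA, which was 83.3% and 60.0% of the gene's exonic reads there. Exon 9 also closed a circle of exons 3 to 9 (530 nt, 0 and 0 reads in RPAD, 0 and 2 in total RNA). The same exon opened a circle of exons 9 to 14 (596 nt, 0 and 0 in RPAD, 1 and 0 in total RNA). Exon 7 alone (117 nt) and exons 7 and 8 (195 nt) had 1 read each, in total RNA replicate 2. Both introns beside exon 9, introns 8 and 9, gave intronic circles too. Exonic reads as a share of the library's exonic reads averaged 0% in RPAD and 0.0510% ± 0.0197 in total RNA (SD, n = 2 each, exact two-sided permutation p = 0.33).

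Some of the exons in troponin T circles had the same size in both paralogs, a comparison chosen after the values were seen. Exons 15 and 16 of the Tnnt3 model are 110 and 91 nt long, and exons 11 and 12 of the Tnnt2 model are 110 and 91 nt too. Tnnt2 had these exons only inside the circle of exons 9 to 14, with 1 read. Exon 12 of Tnnt3 and exon 7 of Tnnt2 are both 117 nt, and each was read once as a single-exon circle. Exon 9 of Tnnt2 (111 nt), which held most of its exonic reads, had no match in size among the exons of the Tnnt3 circles. The place of these exons in the protein was not compared.

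Myh3, the embryonic myosin, was read in total RNA alone. It had 0 and 0 reads in RPAD, against 33 and 27 in total RNA, and was 91.3-fold lower in RPAD against the floor of 3 reads. Its edgeR Benjamini-Hochberg adjusted p was 0.136 and its DESeq2 adjusted p 0.0312. The adjusted p over the settings tried lay between 0.00766 (without RPAD replicate 2) and 1.00, and it was 0.0118 without RPAD replicate 1. Exonic circles took a larger part here than at the other genes, a difference that was not tested. Intronic circles held 57.6% and 70.4% of Myh3 reads in total RNA, with 95% Clopper-Pearson intervals of 39.2% to 74.5% and 49.8% to 86.2%. At Tnnt2 they held 82.9% and 82.1%, with overlapping intervals of 66.4% to 93.4% and 69.6% to 91.1%. Over all back-splice reads of the total RNA libraries the intronic share was 58.4% and 57.2%, near that of Myh3.

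The leading Myh3 exonic circle joined exons 27 and 28 (66908457 to 66909629, 246 nt). It had 0 and 0 reads in RPAD and 9 and 8 in total RNA. Exon 39 (138 nt) had 4 reads and exon 3 (144 nt) had 1, both in total RNA replicate 1. The most-read intron, 20 (66904608 to 66905384, 777 nt), had 0 and 0 reads in RPAD and 10 and 14 in total RNA. Its 9 ends in one total RNA library and 9 in the other included none in common. Tnnt3 intron 4 had 225 and 164 reads in total RNA, so the shared ends of these introns cannot be compared. edgeR gave intron 20 a Benjamini-Hochberg adjusted p of 0.113. The adjusted p of intron 20, and of Myh4 intron 13 with the same counts, was 0.0414 without RPAD replicate 1 and 0.0266 without RPAD replicate 2, and up to 1.00 in other settings.

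**Figure D3:**
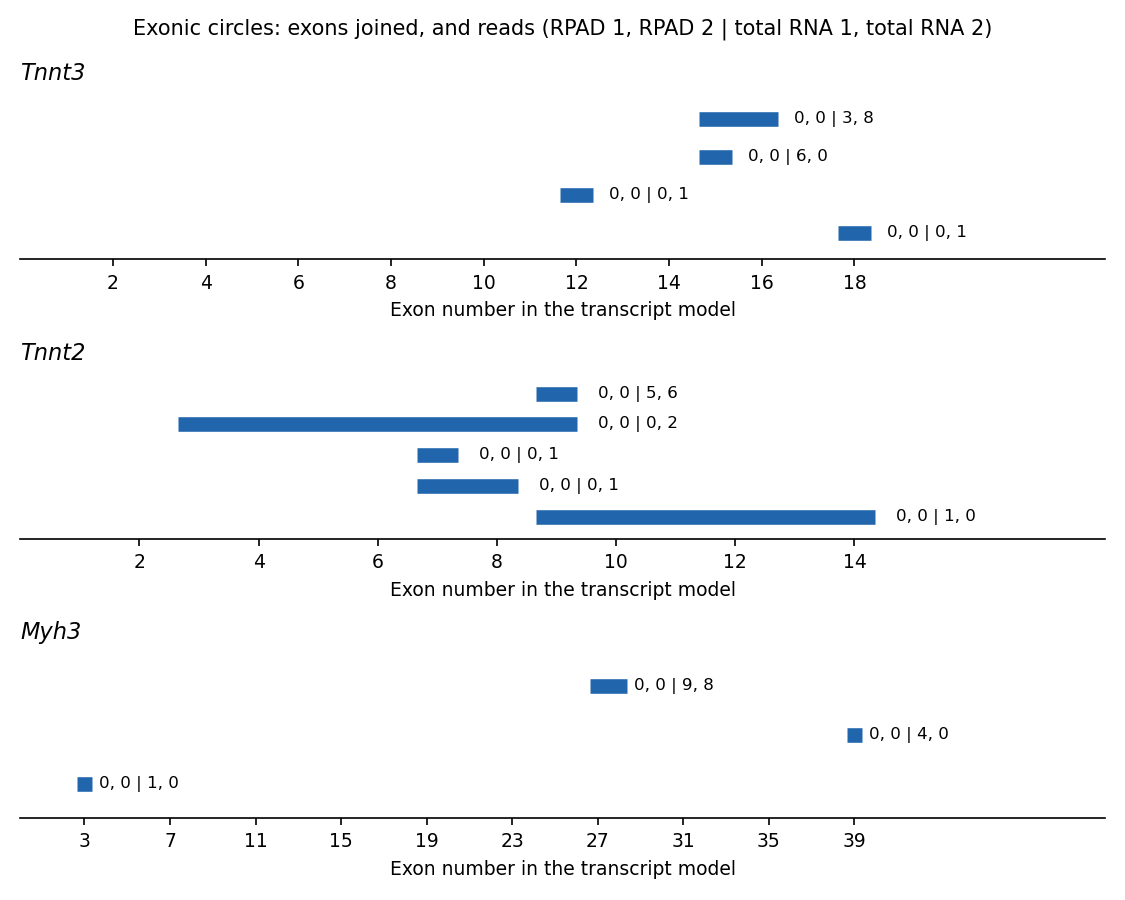
Exonic circles of Tnnt3, Tnnt2 and Myh3 drawn as bars over the exon numbers they join (x axis), with the reads in RPAD 1, RPAD 2, total RNA 1 and total RNA 2 beside each. All 12 have 0 reads in both RPAD libraries, and 3 have reads in both total RNA libraries.

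Over the genes, 12 exonic circles were listed. None was listed in RPAD, as was the case for 71.6% of the 4074 exonic circles of the series. Of the 12, 3 were listed in both total RNA libraries (with no RPAD read, 7.56% of the 4074): exons 15 and 16 of Tnnt3, exon 9 of Tnnt2, and exons 27 and 28 of Myh3. The circles were 110 to 596 nt long, 7 were single exons, and 6 had 1 read in all. An intron next to the circle gave intronic circles for 6 of the 12 (50%), and both neighbouring introns did for 3 (25%). Most of the 6 were overlapping Tnnt2 circles counted through the same introns, 8 and 9. Intron 9 was read in total RNA replicate 2 alone. For exons 3 to 9 of Tnnt2 the upstream intron, 2, had 1 read. In the whole series the shares were 13.1% and 0.712% of the exonic circles. The difference was not tested.

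Myh1, the adult IIx myosin, had intronic circles only and was the most-read of the 7 genes after RPAD. It had 612 and 395 reads in RPAD, against 15 and 58 in total RNA. Per 10000 back-splice reads this was 40.7 and 20.7 in RPAD and 3.86 and 16.1 in total RNA. Both RPAD libraries were above both total RNA libraries, as in 6.95% of 1424 host groups. The difference was within the spread: the log2 fold change was 1.29 (SE 1.50), edgeR's Benjamini-Hochberg adjusted p 0.845 and DESeq2's 0.842. Myh1 ranked 47th of 1315 and 110th of 1747 host groups in RPAD, and 547th of 3798 and 75th of 3254 in total RNA. A listed Myh1 circle had on average 6.73 and 7.90 reads in RPAD and 1.36 and 1.49 in total RNA. Over the introns of the series with at least 20 reads in a library, the median reads per circle end were 4.43 and 2.56 in RPAD and 1.46 and 1.50 in total RNA.

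Introns 15 and 37 gave nearly all Myh1 reads, and both were seen in all 4 libraries. Intron 15 (67021093 to 67022354, 1262 nt) had 348 and 7 reads in RPAD and 2 and 34 in total RNA. Intron 37 (67035186 to 67035648, 463 nt) had 264 and 384 in RPAD and 12 and 24 in total RNA. Both RPAD libraries were above both total RNA libraries per back-splice read at intron 37, as at 8.67% of the 1026 introns, and not at intron 15. Intron 37 was therefore high in both RPAD libraries and intron 15 in replicate 1 alone. The log2 fold change was 1.21 (SE 2.03) for intron 37 and 0.24 (SE 2.61) for intron 15, with edgeR Benjamini-Hochberg adjusted p of 0.941 and 0.999. The direction for intron 15 turned without RPAD replicate 1 (log2 fold change -4.11), without total RNA replicate 1 (-0.68) and with the replicate block (-0.44).

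Within intron 37 the libraries read different zones. Circles of up to 200 nt took 0 of 264 reads in RPAD replicate 1 and 360 of 384 (93.8%) in RPAD replicate 2. In total RNA they took 4 of 12 and 8 of 24 (33.3% each). The median length was 323 and 116 nt in RPAD and 314 and 321 nt in total RNA. The leading ends were 307 nt in RPAD replicate 1 (24 reads) and 126 nt in RPAD replicate 2 (29 reads). Each total RNA library held circles on both sides of 200 nt, while each RPAD library lay nearly all on 1 side. The short ends of RPAD replicate 2 lay at 99 to 130 nt. Those of total RNA replicate 2 lay at 109, 113, 139, 156 and 190 nt, so its short reads were not all in that narrower zone.

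In intron 15 the ends of every library lay between 209 and 303 nt. RPAD replicate 2 had 7 reads there and total RNA replicate 1 had 2, too few to outline a zone. Median lengths were 239 and 252 nt in RPAD and 264 and 247 nt in total RNA. Of the 21 ends in total RNA replicate 2, 11 were also among the 56 of RPAD replicate 1. Intron 6 had 0 and 2 reads in RPAD and 1 and 0 in total RNA. Intron 2 held the remaining 2 reads, from RPAD replicate 2.

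**Figure D4:**
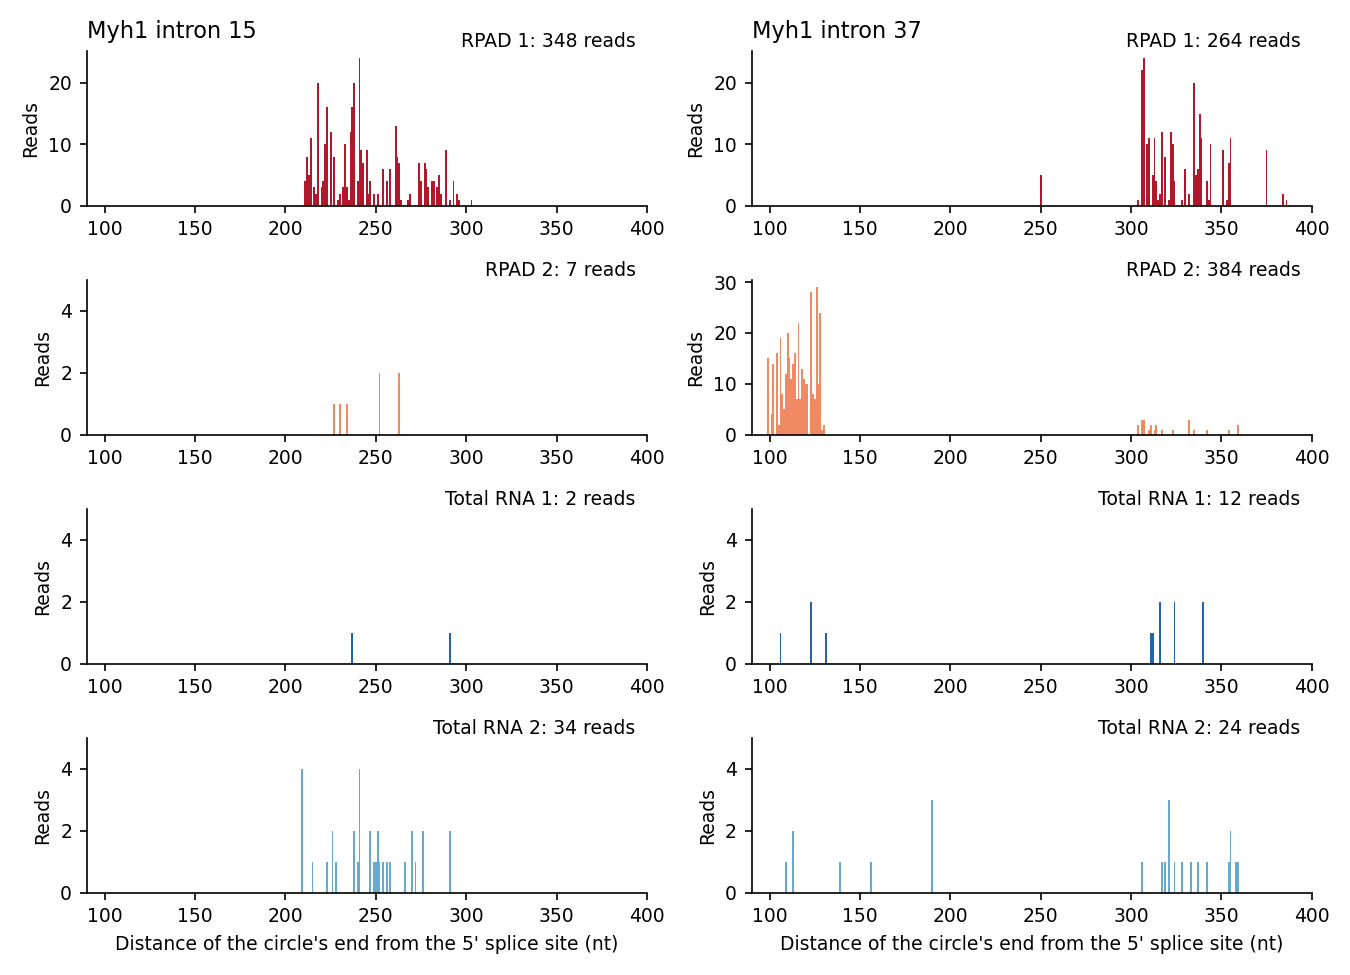
Reads (y axis, scaled separately in each panel) at each circle end in Myh1 introns 15 and 37, by distance from the 5' splice site in nt (x axis), 1 row per library. In intron 37, RPAD 1 reads lie beyond 200 nt and most RPAD 2 reads below it. In intron 15 all ends lie between 209 and 303 nt, with 7 reads in RPAD 2 and 2 in total RNA 1.

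Myh4, the adult IIb myosin, was read through different introns in RPAD replicate 2 and in the total RNA libraries. In 1 transcript model, intron 13 (67059316 to 67059872, 557 nt) had 0 and 0 reads in RPAD and 10 and 14 in total RNA. In another model, intron 7 (67055878 to 67056286, 409 nt) had 0 and 54 in RPAD and 0 and 0 in total RNA, spread over 26 ends. The gene as a whole thus had reads in RPAD replicate 2 and in both total RNA libraries, from separate introns. The host group of the first model had 0 and 0 reads in RPAD and 12 and 14 in total RNA, and was lower in RPAD by at least 39.6-fold. Its edgeR Benjamini-Hochberg adjusted p was 0.136 and its DESeq2 adjusted p 0.0575. It was 0.0118 without RPAD replicate 1 and 0.0147 without RPAD replicate 2, and the highest over all settings was 1.00. The group of intron 7 did not pass the low-count filter and was not tested, and its reads came from 1 library. Of all introns with at least 20 reads in RPAD replicate 2, 78.6% had 0 in RPAD replicate 1.

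Intronic circles of the Myh cluster together averaged 0.550% ± 0.138 of intronic reads in RPAD and 0.322% ± 0.169 in total RNA (SD, n = 2 each). The exact two-sided permutation p was 0.33. By library the shares were 0.648% and 0.452% in RPAD and 0.203% and 0.442% in total RNA. Per 10000 back-splice reads the values were 40.7 and 23.5 in RPAD and 11.8 and 25.3 in total RNA. On that scale the groups overlapped (exact two-sided permutation p = 0.67). The difference in mean share, RPAD minus total RNA, was 0.227 percentage points. It was 0.129 without RPAD replicate 1, 0.108 without total RNA replicate 1 and 0.347 without total RNA replicate 2. For Tnnt2 the averages were 0.0497% ± 0.0404 in RPAD and 0.176% ± 0.0675 in total RNA (exact permutation p = 0.33), with a difference of -0.126 percentage points that was -0.0782 without total RNA replicate 2. For Tnnt3 they were 0% in RPAD and 0.913% ± 0.131 in total RNA (exact permutation p = 0.33). The myosin genes are close copies of each other, and how reads that fit several of them were placed is not stated in the sources at hand. Reads could thus be split between neighbours, and values for single myosin genes carry that uncertainty.

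Single circles carried too few reads for most tests. Of the 387 circles, 16 passed the low-count filter, and 0 of them passed edgeR's Benjamini-Hochberg threshold or that of DESeq2 (background 0% of 924 circles for both). At an unadjusted p under 0.05, 12 were lower in RPAD (background 15.8%). These 12 had 0 reads in both RPAD libraries, so they passed the low-count filter through total RNA alone. Most of the 12 were ends of the same intron, Tnnt3 intron 4, and are not independent. Their count is a description. Of the 21 introns with circles, 7 were tested and 0 passed by edgeR (background 0% of 1026), with 3 lower in RPAD at an unadjusted p under 0.05 (background 27.9%). DESeq2 called 1 intron (background 8.77%), Tnnt3 intron 4.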

How the data were processed

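Each deposited file lists the circles of 1 library as raw counts of back-splice reads, per the file headers. The deposited files also hold a score between 0 and 3, used in 1 alternative, whose meaning the sources at hand do not state. Reads were processed with cutadapt, TopHat and Cufflinks 2.2.1 against mm9, per the submitters' processing notes. The junction caller was not stated in those notes or in the labels.

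Circles missing from a file were counted as 0 reads there. The files pair no symbol with a transcript, and 0 of 8067 identifiers matched the name tables. Genes were named by position. In the Myh cluster, 1 arrangement of the host groups over the order and spacing of the RefSeq GRCm38 genes was possible, so those names rest on that match. The other sarcomere genes listed (24) could not be matched and were not analysed here.

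Counts were tested with edgeR 4.0.16 (quasi-likelihood F test, TMM scaling, filterByExpr with minimum count 5 and total 10, group as the only term) in R 4.3.3, over 1424 host groups, 924 circles and 1026 introns, with Benjamini-Hochberg adjustment. The SE of a log2 fold change is its size divided by the square root of F. DESeq2 1.42.0 was an alternative. The intron sums and the alternative by score were added after seeing the data. Tests were checked on simulated data, with the same spread set in both groups. That check does not cover the turnover seen between libraries of a group. A fold against 0 reads used a floor of 3 reads over the group. Shares were compared by exact permutation of libraries. Within each of the 3 stretches, up to 8 exonic circles and 5 introns with the highest mean share of reads were named. Others were chosen after their values were seen. Members and lists were chosen with earlier results of these data known. Summaries and figures were made in Python 3.11.15 (pandas 2.3.3, numpy 2.4.6, matplotlib 3.10.9).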

Additional observations from a re-analysis of the deposited data

How the results depend on the processing

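The number of the 5 host groups passing 0.05 was 0 in edgeR and 2 with DESeq2. It was 1 without a low-count filter, where 2 of all 6532 host groups passed. It was also 1 with the replicate block, where 2 of all 1424 host groups passed. With 1 library left out it was 0 to 3. For introns it was 0, 1 with DESeq2, 1 with the replicate block (of 1 called in the series) and 0 to 4 with 1 library left out, and for circles 0 and 0 to 6. Without RPAD replicate 1 edgeR called 534 of all 1424 host groups, 272 of 1026 introns and 184 of 924 circles. Without RPAD replicate 2 it called 620, 363 and 214, and without a total RNA library it called 0 of each. The lone library left is assumed there to vary like the other group. Replicate numbers were not shown to pair the libraries: same-numbered deviations correlated at 0.0157 over host groups, 0.0278 over circles and 0.0729 over introns. Directions turned for Myh1 intron 15 (log2 fold change -0.44 with the replicate block, -4.11 to 3.38 with 1 library left out) and for Tnnt2 intron 8 (-5.22 to 0.60 with 1 library left out, the positive value without total RNA replicate 1). The difference in exonic circles listed, RPAD minus total RNA, was -2.5 for Tnnt3 and -3 for Tnnt2, and -1.5 for each with at least 2 reads per circle. For the Myh cluster it was -2, and -3 to -1 with 1 library left out. With junctions of score 0 only, the Tnnt2 log2 fold change was -7.69 (edgeR Benjamini-Hochberg adjusted p = 0.0983). With exonic reads only, it was -7.46 for Tnnt2 and -7.71 for Tnnt3 (0.151 each). These fits are against 0 RPAD reads. The exonic circles of these genes had at most 9 reads each in a library, so the exonic values rest on few reads.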
